A study of Mus musculus with 2 samples.

Results

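The genes described here are the interferon-stimulated genes and the interferon regulatory factors (IRFs) of the mouse salivary gland. The rule that selected them uses gene names and no measured value: every gene symbol of the table of all cells that begins with Ifi, Oas, Gbp, Isg, Irgm or Iigp, that is Irf followed by a number, or that is Mx1, Mx2, Igtp, Rsad2, Usp18 or one of the Stat genes of this pathway. That gave 71 of the 20140 genes in the table. They were read as 16 type I targets (the Ifit, Isg and Oas genes), 14 interferon-gamma targets (the Gbp, Irgm, Iigp and Igtp genes), 7 Ifitm genes, 9 Irf genes, 2 Stat genes, and 23 others. The study asked how the stromal cells of the gland differ after its ducts are blocked. It comprised 2 droplet single-cell RNA libraries, 1 per condition. In the ligated library, the main ducts had been closed with a clip for 14 days. In the mock library, the ducts had been located in the same operation but not clipped.

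Both groups were female C57BL6/J mice aged 14 weeks, with no transgene named. Each library held 2 glands, which carried the submandibular and the sublingual tissue together. In both, epithelial cells bearing EpCAM and red blood cells bearing Ter119 had been depleted with beads and dead cells removed, so the epithelial and red cells that remain are those that escaped the beads. A condition with 1 library has no replicate, so no difference below was tested. A difference between the libraries cannot be told apart from a difference between the animals, the preparations or the lists of genes counted in each library.

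Cells answer interferons through receptors that switch on Janus kinases, which in turn activate the STAT transcription factors. Type I interferons act mainly through a complex of STAT proteins and IRF9 that binds the interferon-stimulated response element (ISRE), and interferon-gamma acts mainly through paired STAT proteins that bind the gamma-activated site (GAS). The targets include proteins that block the growth of viruses, such as the Ifit, Oas and Ifitm proteins and viperin (Rsad2), and GTPases that attack the vacuoles of intracellular microbes, such as the Gbp and Irgm proteins. Many targets answer both kinds of interferon, so the names used for the groups are a convention and not a reading of which interferon acted.

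The promoters are shown because they carry the shared sequence feature of these genes. RefSeq promoter windows of GRCm38.p6, the mm10 assembly, were found for 56 of the 71 genes. Each window holds 300 bases around the start site. The ISRE was searched as TTTC, any 2 bases and TTTC again, on both strands (GAAA, any 2 bases and GAAA on the other). The GAS was searched as TTC, any 3 bases and GAA, which reads the same on both strands. The 6 windows below were picked to show type I targets (Isg15 and Ifit3), interferon-gamma targets (Gbp2 and Igtp), and genes whose levels differed by cell type or library (Rsad2 and Ifi205). Each reads 5′ to 3′ on the gene's strand, with matches in capitals. The Isg15 window is chr4:156200769-156201068 (minus strand), Ifit3 chr19:34583279-34583578 (plus), Rsad2 chr12:26456403-26456702 (minus), Gbp2 chr3:142620413-142620712 (plus), Igtp chr11:58199306-58199605 (plus) and Ifi205 chr1:174031706-174032005 (minus).
Isg15: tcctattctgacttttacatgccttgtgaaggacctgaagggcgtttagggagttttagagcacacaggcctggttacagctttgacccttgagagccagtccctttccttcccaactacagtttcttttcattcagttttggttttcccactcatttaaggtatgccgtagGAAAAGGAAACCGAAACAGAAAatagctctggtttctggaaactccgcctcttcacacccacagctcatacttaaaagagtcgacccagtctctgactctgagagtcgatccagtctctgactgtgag
Ifit3: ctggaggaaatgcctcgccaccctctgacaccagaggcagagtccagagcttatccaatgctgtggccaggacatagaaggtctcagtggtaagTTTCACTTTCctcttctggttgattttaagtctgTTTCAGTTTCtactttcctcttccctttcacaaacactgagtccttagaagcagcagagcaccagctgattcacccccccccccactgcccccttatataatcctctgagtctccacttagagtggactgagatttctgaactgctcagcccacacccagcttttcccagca
Rsad2: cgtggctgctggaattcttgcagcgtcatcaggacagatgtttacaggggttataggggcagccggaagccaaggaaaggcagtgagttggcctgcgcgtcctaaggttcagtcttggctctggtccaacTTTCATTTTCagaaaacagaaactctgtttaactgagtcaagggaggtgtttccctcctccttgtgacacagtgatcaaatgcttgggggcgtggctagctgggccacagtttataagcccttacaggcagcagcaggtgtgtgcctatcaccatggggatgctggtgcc
Gbp2: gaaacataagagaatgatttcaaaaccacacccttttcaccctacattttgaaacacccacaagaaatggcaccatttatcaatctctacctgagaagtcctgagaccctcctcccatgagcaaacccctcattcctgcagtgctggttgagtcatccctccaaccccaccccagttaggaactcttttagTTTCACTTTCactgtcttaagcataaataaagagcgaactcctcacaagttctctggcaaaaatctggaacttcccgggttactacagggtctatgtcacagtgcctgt
Igtp: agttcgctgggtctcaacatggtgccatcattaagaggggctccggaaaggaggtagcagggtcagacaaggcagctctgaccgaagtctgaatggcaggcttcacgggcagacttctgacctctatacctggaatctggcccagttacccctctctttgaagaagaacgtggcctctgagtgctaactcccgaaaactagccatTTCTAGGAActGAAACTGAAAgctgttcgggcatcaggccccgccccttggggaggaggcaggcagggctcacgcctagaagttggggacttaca
Ifi205: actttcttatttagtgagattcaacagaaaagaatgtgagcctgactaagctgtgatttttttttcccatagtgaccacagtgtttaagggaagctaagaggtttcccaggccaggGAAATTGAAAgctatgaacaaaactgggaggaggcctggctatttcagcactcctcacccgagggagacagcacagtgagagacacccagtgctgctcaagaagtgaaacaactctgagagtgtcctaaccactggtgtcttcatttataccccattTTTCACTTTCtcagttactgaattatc

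Isg15 held 3 overlapping ISRE matches in 1 run, the first of them starting at position -78 relative to the start site. Ifit3 held 2 separate matches, starting at -156 and -122. The Rsad2 match started at -120 and the Gbp2 match at -59. In Igtp, a GAS match at -45 was followed by an ISRE match at -34. Ifi205 held an ISRE match at -134 and another at 24, after the start site.

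An ISRE match was present in 32 of the 56 windows (57.1%), beside 1079 of the 27025 genes in the promoter table (3.99%). All 8 interferon-gamma targets with a window had a match, as did 10 of 15 type I targets, 10 of 17 other genes, 2 of 7 Ifitm genes (Ifitm2 and Ifitm3) and 1 of 8 Irf genes (Irf2). A GAS match was present in 14 of the 56 windows (25%), beside 9.55% of all genes, and in 4 of the 8 interferon-gamma targets (Gbp5, Gbp7, Igtp and Irgm2). The genes lie in families, with 13 members on chromosome 1, 12 on chromosome 5, 9 on chromosome 7 and 8 on chromosome 3. Neighbouring family members can share promoter sequence, and a match is a run of letters and not a measured binding site.

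**Figure D1:**
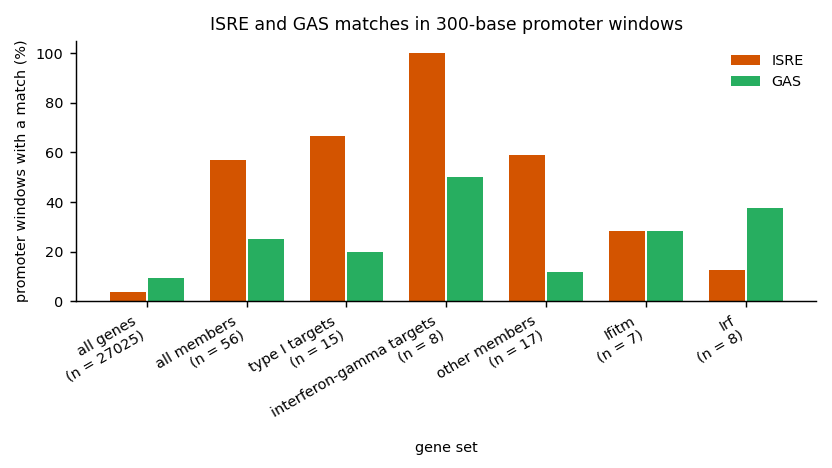
Share of promoter windows (percent, vertical axis) with at least 1 match to the ISRE or the GAS letters, for all genes of the promoter table and for the interferon genes by group, with the number of genes with a window under each name. The ISRE bar is at 3.99% for all genes, 57.1% for all 56 members and 100% for the 8 interferon-gamma targets.

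The values are the authors' cluster means: for each gene, the share it takes of a cell's unique molecular identifiers (UMIs), per 10000, averaged over the cells of the cluster. Cell numbers were recovered from the means and came to 11406 for the ligated library and 4199 for mock, and the UMI totals that could be recovered for single cells had medians of 6754 and 6568. The 12 clusters of all cells were named here from marker genes. Clusters 0 and 4 were endothelial-like, the latter with lymphatic markers, 1 natural killer-like, 2 T cell-like, 3 fibroblast-like, 5 macrophage-like, 6 mural-like (pericytes and vascular muscle), 7 ductal-like, 9 Schwann-like and 10 erythroid-like, while 8 and 11 stayed unnamed. A subset that the authors named by Pdgfra, Pdgfrb and Gli1 had 5 clusters, of which 0, 2 and 3 were fibroblast-like, mural-like and endothelial-like. The subset shares its cells with the table of all cells and is no independent support. A comparison needed 50 or more cells from each library, which left 9 clusters of all cells and 3 of the subset.

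Every cluster but the erythroid-like one held interferon genes at their highest level. Of the 71 genes, 18 were highest in endothelial-like cluster 0, 11 in the Schwann-like cluster, 11 in the macrophage-like cluster and 10 in the T cell-like cluster. These counts include genes that were low everywhere or listed in 1 library only. In the macrophage-like cluster, Mx1 (0.0328), Ifitm7 (0.0164), Gbp2b (0.000984) and Ifi30 were listed in 1 library only, and Oas1g (0.0552) and Ifitm6 (0.107) were low. The share of all genes highest in each cluster was not counted. Among the 13 interferon-gamma targets listed in both libraries, 8 were highest in cluster 0: Gbp4, Gbp5, Gbp7, Gbp9, Irgm1, Irgm2, Igtp and Iigp1. Iigp1, a GTPase that coats parasite vacuoles, stood at 4.6 per 10000 in cluster 0, 2.47 in cluster 4, 2.37 in fibroblast-like cells and 0.10 in natural killer-like cells. Gbp7 stood at 3.37 in cluster 0 and 0.25 in ductal-like cells. Gbp2 was highest in the Schwann-like cluster, at 2.19, with 1.28 in cluster 0.

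The type I targets were arranged otherwise. The Schwann-like cluster had the highest level of 6 of 16: Isg15 (2.95), Ifit3 (2.79), Oasl2 (1.32), Ifit1 (1.23), Ifit2 (0.889) and Ifit1bl2 (0.0177). That cluster had 271 ligated and 17 mock cells, so its joint level is almost wholly that of the ligated library. Its rank beside clusters with more mock cells therefore mixes library with cell type. In the ligated library alone, Isg15 stood at 3.26 in cluster 4, above the joint 2.95 of the Schwann-like cluster. Isg20, an exonuclease that degrades RNA, was highest in T cell-like cells at 1.19 and stood at 0.10 in Schwann-like cells.

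Single genes had sharper patterns. Rsad2 stood at 8.58 in cluster 0, 3.06 in erythroid-like cells and 2.71 in cluster 4, and at 0.16 in natural killer-like cells. Ifi205, of a family on chromosome 1 that includes sensors of DNA, stood at 1.64 in fibroblast-like cells and at 0.11 or less in each other cluster. Ifitm1, a membrane protein that blocks virus entry, stood at 4.22 in mural-like cells, with 0.37 in T cell-like cells as the next level. Ifitm3, of the same family, was broad, with 29.0 in cluster 4, 28.2 in cluster 0, 27.9 in mural-like and 27.8 in fibroblast-like cells, and 1.10 in natural killer-like cells. Ifitm2 stood highest in fibroblast-like cells at 16.7. Ifi27 and Ifi27l2a, both small interferon-induced proteins, were highest in ductal-like (7.37) and Schwann-like cells (14.4).

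The family of Ifi205 split between cell types. Ifi206, Ifi208, Ifi209, Ifi213 and Ifi214 were highest in T cell-like cells, Ifi205 and Ifi211 in fibroblast-like cells, Ifi204 and Ifi207 in macrophage-like cells, and Ifi203 in cluster 0. These are neighbouring, similar genes on chromosome 1, so their separate levels are uncertain where the counting could split reads among them.

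The regulators were split too. Irf8, needed for macrophage and dendritic cell development, stood at 3.32 in macrophage-like cells and 1.09 in natural killer-like cells, and Irf5 at 1.19 in macrophage-like cells and at 0.33 or less elsewhere. Irf4 was at 0.05 or less in every cluster. Irf1, Irf2, Irf3, Irf7 and Irf9 were detected in all clusters, with Irf1 highest in cluster 0 (1.83) and Irf7 and Irf2 in cluster 4 (1.96 and 2.20).

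**Figure D2:**
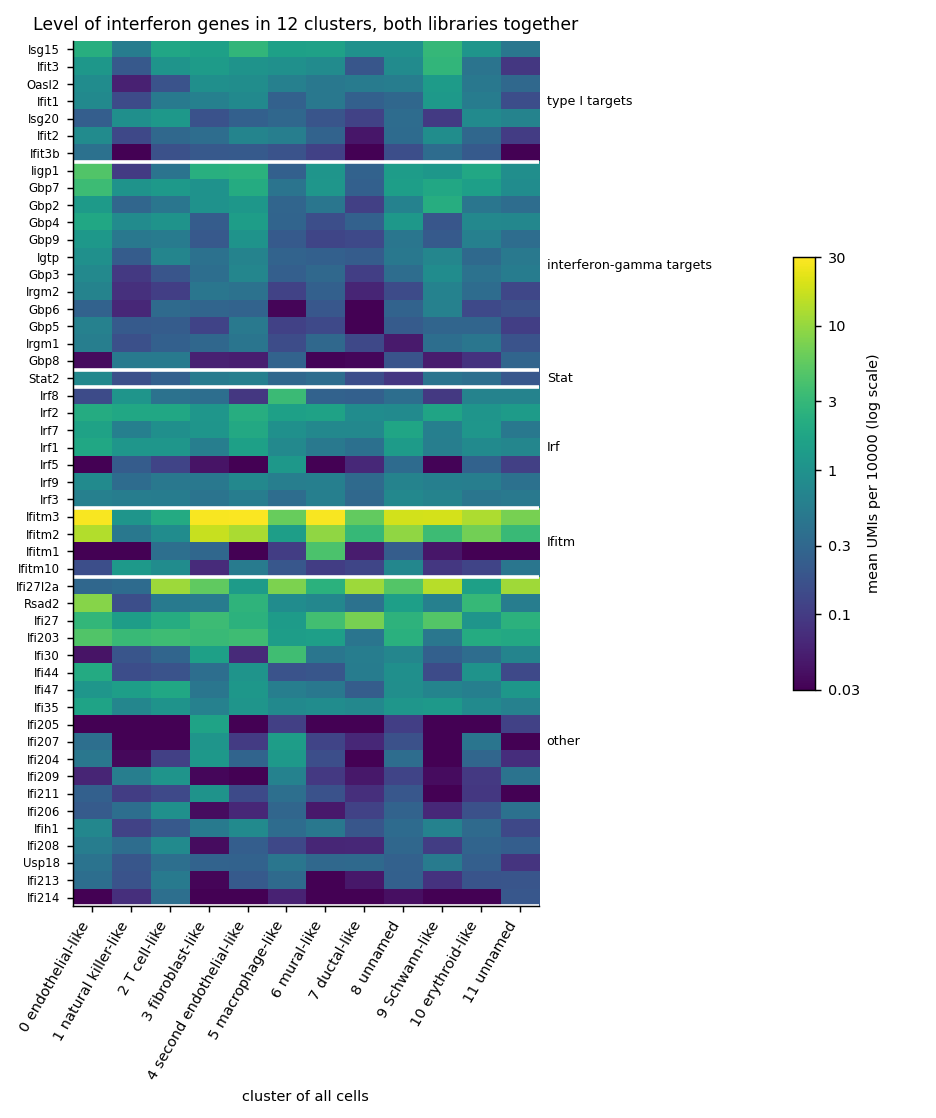
Level of interferon genes that reached 0.25 in any cluster (rows, by group) in the 12 clusters of all cells (columns), as mean UMIs per 10000 over both libraries, on a log colour scale that ends at 0.03 and 30. Rsad2 and Iigp1 are brightest in endothelial-like cluster 0, Ifitm1 in mural-like cluster 6 and Irf8 in macrophage-like cluster 5.

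For the comparison of libraries, the difference of a gene was log2((ligated + 0.1)/(mock + 0.1)). A gene was compared where both libraries listed it and its values averaged 0.25 or more. It was past the size rule where the larger value reached 0.5 and the difference reached 1 in either direction. Below, the ligated value comes first, then the mock value, then the difference in parentheses. Of the 71 genes, 64 were listed in both libraries and 50 were compared in at least 1 of the 9 clusters, giving 286 pairs of a gene and a cluster. The other 7 were listed in 1 library only. These were Mx1 in the mock library (at most 0.322) and Ifi30 (at most 3.98), Ifi202b, Gbp2b, Ifi44l, Ifi27l2b and Ifitm7 in the ligated library. Of all genes, 3150 were listed only for ligated and 684 only for mock cells, so a gene listed at 0 is not shown to be absent. Cgas was listed for ligated cells only (at most 0.399) and Mb21d1, a symbol of the same gene, for mock cells only (at most 0.743). The lists of genes counted in the libraries thus differed. The part of this in the differences below, above all for overlapping or similar genes, was not tested. A further 14 were listed in both libraries but too low to be compared in any of the 9 clusters. They were Isg20l2, Oasl1, Oas1a, Oas1c, Oas1g, Oas2, Oas3, Ifit1bl1, Ifit1bl2, Gbp6, Gbp10, Ifitm5, Ifitm6 and Irf4, so the Oas enzymes are described here by Oasl2 alone.

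Across the 9 clusters, 192 pairs were higher and 94 lower in the ligated library. Past the size rule were 23 pairs on the higher side (8.04%), beside 3.75% of the pairs of all genes, and 5 on the lower side (1.75%), beside 2.26%. The ductal-like and erythroid-like clusters gave 12 of the 23, and these are also the clusters with the most genes of all kinds past the rule. Without them the counts were 11 higher and 3 lower, beside 1.68% and 1.72% of all genes.

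Markers of other cell types moved with the condition. At the median of such markers, the ligated library held 9.33% of its own library mean in cluster 0, beside 3.79% in mock. In mural-like cluster 6 the shares were 22.4% and 7.45%. In mural-like subset cluster 2 they were 8.03% and 1.05%. They were higher in the ligated library in each of the 12 compared clusters of both tables. When that share of the library mean profile was subtracted, the counts were 11 higher and 10 lower, and the split over all genes went from 3.75% higher and 2.26% lower to 2.06% and 3.82%.

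**Figure D3:**
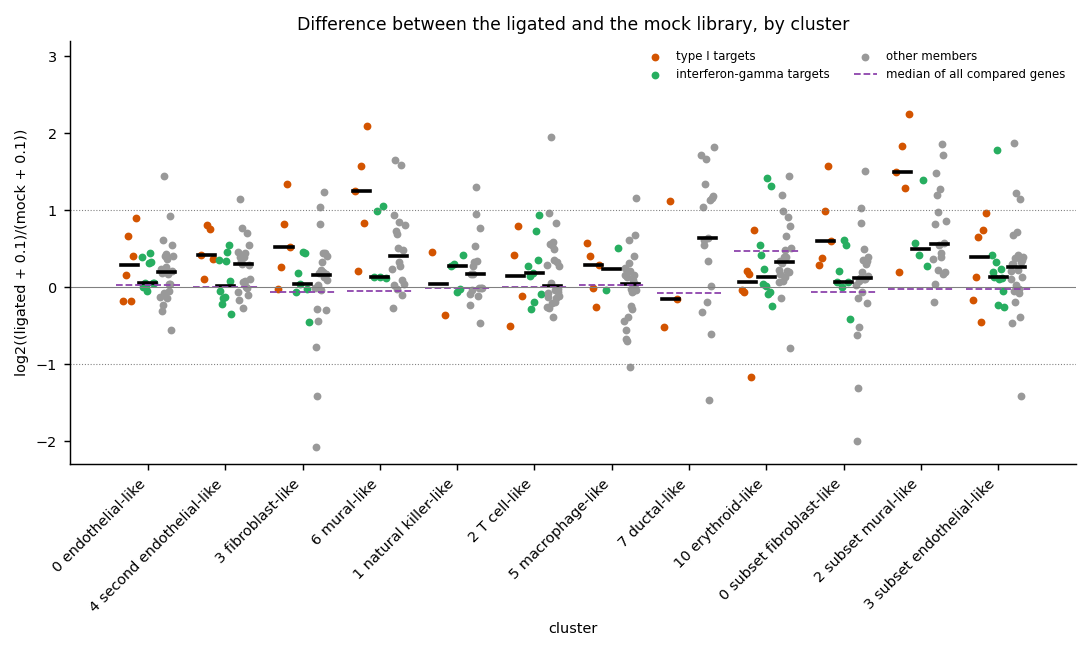
Difference between the libraries (log2, vertical axis) of each compared gene in each compared cluster, 1 point per gene, coloured by group, with a black bar at the group's median and a dashed line at the median of all compared genes. The type I targets of the mural-like clusters have medians of 1.25 and 1.5, each over the 5 compared of 16 genes. The erythroid-like cluster has an all-gene median of 0.48.

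The median difference of the type I targets was above that of all genes in 7 of the 9 clusters. That of the interferon-gamma targets was above in 7 clusters and below in the erythroid-like one, and none was compared in the ductal-like cluster. For the type I targets it was 0.29 in cluster 0, 0.42 in cluster 4 and 0.53 in fibroblast-like cells. In natural killer-like cells it was 0.05 over 2 genes, beside -0.007 over all genes. After the subtraction it was -0.094 there, beside -0.088. The exceptions for the type I targets were the ductal-like and erythroid-like clusters. The ductal-like median was -0.15 over 3 genes, beside -0.07, and 0.24 over 2 genes after the subtraction, beside -0.33. The erythroid-like median was 0.07, beside 0.48 over all genes. Of the 41 pairs of a type I target and a cluster, 28 were higher and 13 lower in the ligated library. Ifit1 was lower in 5 of its 7 compared clusters and Isg20 in 4 of 4.

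In mural-like cluster 6 (420 ligated and 161 mock cells), 25 of 28 compared interferon genes were higher in the ligated library, with a median difference of 0.49 beside -0.04 over all genes. The 5 compared type I targets were all higher, with a median of 1.25, or 1.36 over 4 genes after the subtraction. The size of this median rests on the filter on low values: with no filter it was 0.20 over all 16 type I targets, beside 0.03 over all genes and 0.45 for the type I targets of macrophage-like cells. The 6 genes past the size rule were Oasl2, Ifit3, Ifit1, Irf7, Ifi47 and Iigp1, beside 2.49% of all genes on the higher side.

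Oasl2, a relative of the enzymes that sense double-stranded RNA, lies at chr5:114896936-114912234 and was at 0.640 in the ligated library and 0.0735 in mock, a difference of 2.09. Ifit3, which binds Ifit1 and helps it act on viral RNA, was at 1.04 and 0.285 (1.57). Ifit1 was at 0.581 and 0.187 (1.25). For each of the 3, the approximate 95% Poisson intervals of the libraries did not overlap. These intervals cover counting error only, and they rest on UMI totals from cells that are deeper than average.

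Among the regulators, Irf7, which drives the amplifying loop of type I interferon and lies at chr7:141262706-141266481 in the GENCODE annotation of mm10, was at 0.949 and 0.25 (1.58). Irf1 was at 0.577 and 0.275 (0.85). Ifi47, an immunity-related GTPase, was at 0.607 and 0.126 (1.65) and Iigp1 at 1.29 and 0.567 (1.06). The type I targets Isg15 and Ifit2 were not past the rule: Isg15 was at 1.81 and 0.969 (0.84) and Ifit2, with overlapping intervals, at 0.285 and 0.233 (0.21). The interferon-gamma targets had a median of 0.13 over 5 compared genes, which became -0.08 after the subtraction, with all genes then at -0.25. With no filter on low values the order was the other way: 0.64 over 12 interferon-gamma targets and 0.20 over 16 type I targets. After the subtraction, Oasl2, Irf7 and Ifit3 stayed past the size rule, while Ifi47 (1.40), Ifit1 (1.26) and Iigp1 (1.00) no longer met both of its parts.

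In mural-like subset cluster 2 (274 and 128 cells), 26 of 27 compared genes were higher, with a median of 0.58 beside -0.02 over all genes. The filter on low values bears on this count and this median. Oasl2, Ifit1, Irf7 and Rsad2 passed it through their ligated values, with mock values below 0.25. Past the size rule were 8 genes, all higher, beside 1.99% of all genes. Oasl2 was at 0.674 and 0.0628 (2.25), Ifit3 at 1.35 and 0.307 (1.83) and Irf7 at 0.959 and 0.193 (1.85). Isg15 was at 1.96 and 0.746 (1.28), Ifit1 at 0.662 and 0.170 (1.5), and Iigp1 at 1.15 and 0.375 (1.39). Ifih1, the sensor MDA5, was at 0.716 and 0.255 (1.20). Rsad2 was at 0.572 and 0.104 (1.72) here, but at 0.727 and 0.783 (-0.10) in cluster 6. Of the 8, Rsad2 no longer met the rule after the subtraction. Over the 3 compared subset clusters, 14 of 102 pairs were past the rule on the higher side, beside 2.58% of all genes, and 3 on the lower side, beside 2.59%.

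Beside these values, summed markers of immune cells in cluster 6 were higher in the ligated library: natural killer markers 2.59 and 0.0428, macrophage markers 1.86 and 0.192, T cell markers 1.27 and 0.154. Endothelial markers were at 12.9 and 16.6. In the subset cluster, natural killer markers were at 0.394 and 0.0538, macrophage markers at 1.58 and 0.00912, and endothelial markers at 3.04 and 2.09. The macrophage markers Csf1r, Adgre1, C1qa, C1qc, Cd68, Lyz2, Mrc1 and Fcgr1 were at 0 in the mock subset cluster. Their part in the result was not tested.

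**Figure D4:**
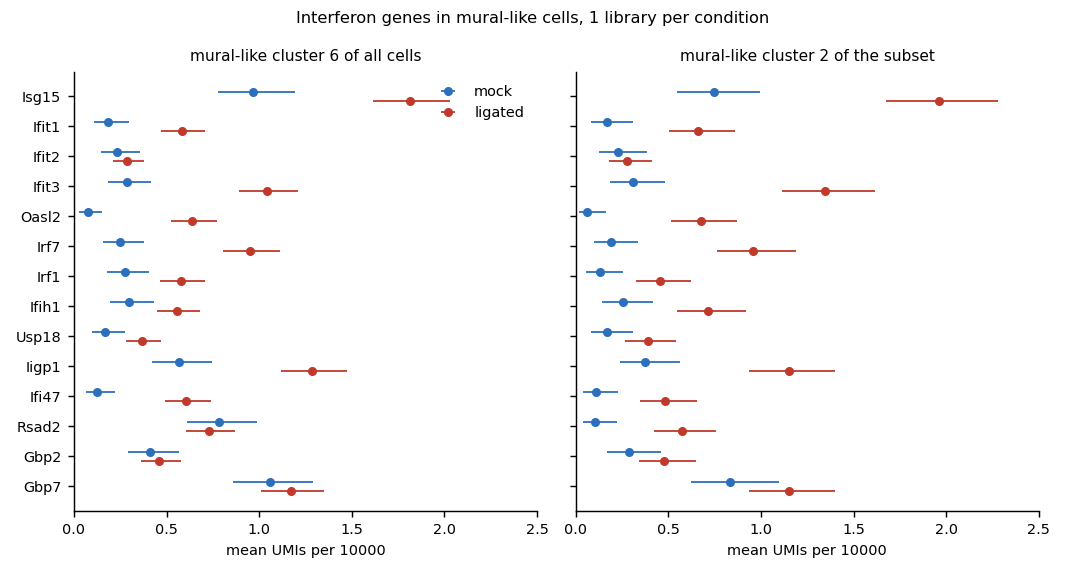
Mean UMIs per 10000 of 14 interferon genes in the mock and the ligated library, in mural-like cluster 6 of all cells (left) and mural-like cluster 2 of the subset (right), with approximate 95% Poisson intervals for counting error. Oasl2, Ifit3 and Irf7 are apart in both panels, while Rsad2 is apart only in the right one, at 0.572 against 0.104.

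In fibroblast-like cluster 3 (1149 and 188 cells) interferon genes were past the rule in both directions. Isg15, a ubiquitin-like protein, was at 1.68 and 0.603 (1.34), and Irf7 at 1.21 and 0.457 (1.24), beside 2.13% of all genes past the rule on the higher side. Ifi205 was at 1.10 and 4.96 (-2.07) and Ifi207, of the same family, at 0.863 and 2.47 (-1.42), beside 3.05% on the lower side. Ifi204 was at 1.07 and 1.91 (-0.78), below the size rule. The type I targets had a median of 0.53, beside -0.06 over all genes.

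In the fibroblast-like subset cluster 0, Ifi205 was at 1.11 and 4.73 (-2.00) and Ifi207 at 0.934 and 2.45 (-1.30). Isg15 was at 1.71 and 0.507 (1.57) and Irf7 at 1.19 and 0.352 (1.51). The background was 2.25% higher and 3.06% lower. The macrophage-like cluster also had less Ifi207 in the ligated library, at 1.33 and 2.18 (-0.67).

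Irf7 was the most widely shifted regulator, higher in the ligated library in 8 of 9 clusters. In cluster 0 it was at 2.07 and 1.04 (0.93), and in T cell-like cells at 0.987 and 0.511 (0.83). The macrophage-like cluster was the exception, at 0.955 and 0.986 (-0.04). Irf2, Irf3 and Irf9 differed less: over the compared clusters of all cells other than the ductal-like and erythroid-like ones, Irf2 differed by at most 0.33 in size, Irf3 by at most 0.27 and Irf9 by at most 0.33. In mural-like subset cluster 2, Irf2 differed by 0.44 and Irf3 by 0.40, and in endothelial-like subset cluster 3 Irf3 differed by -0.39. Irf5 in macrophage-like cells was at 1.19 and 1.11 (0.09), and Irf8 there at 3.41 and 2.55 (0.41). Stat2 differed by at most 0.51 in any compared cluster.

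Ifi27l2a had the largest difference of the compared interferon genes in the T cell-like cluster. In T cell-like cells (1393 and 155 cells) it was at 11.7 and 2.96 (1.95), the only 1 of 37 compared interferon genes past the size rule there, beside 0.974% of all genes on the higher side. In cluster 4 it was at 1.59 and 0.667 (1.14), beside 1.39%, and fell under the rule after the subtraction (0.80). The direction was not shared by the macrophage-like cluster, with 7.43 and 9.77 (-0.39), and fibroblast-like cells were level at 5.63 and 5.51 (0.03). In the T cell-like cluster, summed natural killer markers were at 12 and 17.0 and T cell markers at 41.1 and 31.8. Their part in the result was not tested.

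Endothelial-like cluster 0, with the most mock cells (2948 and 2363 cells), had none of 38 compared genes past the size rule, beside 2.86% of all genes in either direction. Rsad2 was lower in the ligated library, at 7.08 and 10.5 (-0.56), while Irf7, Oasl2 (1.12 and 0.558) and Ifit3 (1.41 and 0.850) were higher. Of the 6 compared type I targets there, 4 were higher and 2 lower. In endothelial-like subset cluster 3 (260 and 82 cells), Rsad2 was at 3.99 and 10.8 (-1.41), beside 2.34% of all genes on the lower side. Irf7 (2.00 and 0.850), Ifi47 (1.19 and 0.455), Ifi27l2a (1.90 and 0.446) and Gbp6 (0.514 and 0.0780) were past the rule on the higher side, beside 3.47%. Gbp6 no longer met the rule after the subtraction. That subset cluster differed in makeup: fibroblast markers summed to 65.6 and 19.6, endothelial markers to 109 and 175, and erythroid markers to 1.37 and 26.6. Their part in the result was not tested.

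**Figure D5:**
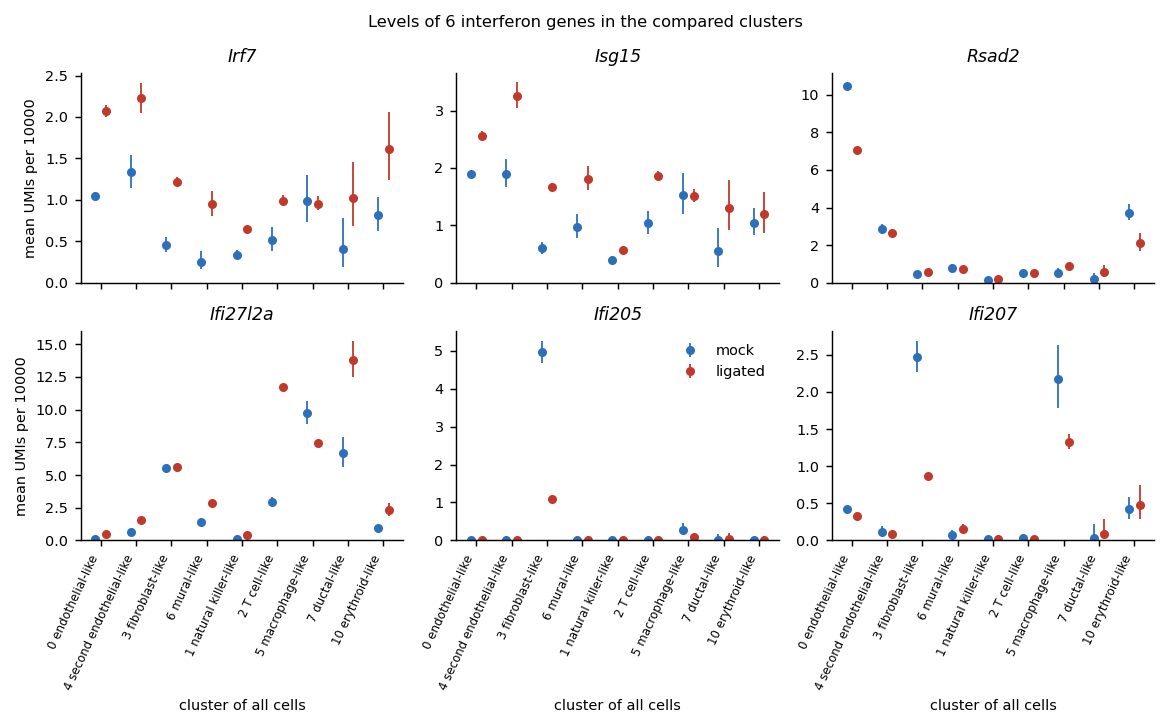
Mean UMIs per 10000 of 6 interferon genes in the 9 compared clusters of all cells, mock and ligated library side by side, with approximate 95% Poisson intervals for counting error; the vertical scale differs by panel. Irf7 is higher in the ligated library in 8 of 9 clusters, Ifi205 is present mainly in fibroblast-like cells at 4.96 in mock and 1.10 in ligated, and Rsad2 in endothelial-like cluster 0 is lower in ligated at 7.08 against 10.5.

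The interferon-gamma targets had group medians between 0.02 and 0.27 in the 8 clusters of all cells where any was compared. After the subtraction none was compared in macrophage-like cells, and the medians of the other clusters were between -0.11 and 0.16. The medians of all genes in those clusters were then between -0.25 and 0.13. Only in the erythroid-like cluster was the group below all genes (-0.11 beside 0.13). With no filter on low values the medians reached 0.46 in macrophage-like and ductal-like cells and 0.64 in mural-like cells. In the subset the median was 0.50 in mural-like cluster 2, with 4 of 4 compared genes higher, 0.07 in fibroblast-like cluster 0 and 0.14 in endothelial-like cluster 3. In cluster 0, Gbp7 was at 3.32 and 3.44 (-0.05) and Gbp4 at 1.89 and 1.81 (0.06). Past the rule in all cells were Iigp1 in mural-like cells and Gbp9 (1.41) and Irgm1 (1.31) in erythroid-like cells. For Gbp6, in 7 of the 9 clusters the intervals did not overlap, with 0.404 and 0.0853 in cluster 0 and 0.356 and 0.0703 in T cell-like cells, but in each of these clusters it was too low to be compared. Gbp6 shares same-strand exon sequence with another gene, as do 16 of the 71 genes in all, among them Gbp4, Gbp7, Gbp9, Ifi47 and Ifitm2.

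The Ifitm genes past the rule were Ifitm3 in natural killer-like and ductal-like cells and Ifitm2 in macrophage-like and ductal-like cells. Ifitm3 was at 1.23 and 0.442 (1.30) in natural killer-like cells, beside 0.904% of all genes on the higher side, and became -0.84 after the subtraction. Ifitm2 was at 1.30 and 2.77 (-1.04) in macrophage-like cells, beside 2.33% on the lower side. In the clusters where Ifitm3 was most abundant, it was at 31.3 and 24.2 (0.37) in cluster 0, 30.4 and 21.5 (0.50) in mural-like cells and 28.6 and 22.8 (0.32) in fibroblast-like cells.

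In the ductal-like cluster 7 (278 and 201 cells), 8 genes were past the rule on the higher side and 1 on the lower, of 20 compared, beside 9.91% and 7.87% of all genes. Among the higher ones were Ifi203, Isg15, Ifitm2, Ifitm3, Irf7, Rsad2 and Ifi27l2a. Cells there held 1012 recovered UMIs at the median in the ligated library, and the intervals overlapped for 6 of the 9, among them Ifi203, Isg15, Irf7 and Rsad2. In the erythroid-like cluster 10 (60 and 85 cells), Gbp9, Irf8, Irgm1 and Ifi27l2a were higher and Isg20 lower, of 38 compared, beside 14.9% and 1.04%.

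Of the rest of the pathway, 85 genes were listed by role. Among 9 interferon genes, Ifng had a row, and the type I and type III interferons listed had none. Ifng was at 1.02 and 1.41 (-0.43) in T cell-like cells, its highest cluster. Of the 6 receptor genes in all cells, Il10rb was past the rule in ductal-like cells (1.10 and 0.249) and Ifnar1 in erythroid-like cells (0.650 and 0.241). In the subset, Ifnar1 was past it in endothelial-like cluster 3, at 0.627 and 0.202 (1.27), beside 3.47% of all genes. In cluster 0, Ifnar1 was at 0.734 and 0.371 (0.82) and Ifnar2 at 2.73 and 1.76 (0.61). Over 235 pairs of other targets, 17 were higher past the rule, beside 3.75% of the pairs of all genes, and 0 lower, beside 2.26%. Of the 17, 10 were in the ductal-like cluster, where the share over all genes was 9.91%. Cxcl10, a chemokine that draws T and natural killer cells, was at 1.15 and 0.0930 (2.70) in fibroblast-like cells and 0.564 and 0.0269 (2.39) in cluster 0. In mural-like cluster 6, Ly6e, a membrane protein induced by interferon, was at 6.35 and 2.80 (1.15), and Tap1, part of the peptide transporter for antigen presentation, at 0.505 and 0.163 (1.20). Among 44 pairs of sensors, 2 were past the rule, both lower: Tlr3 at 0.179 and 0.534 in macrophage-like cells, beside 2.33% of all genes, and Eif2ak2 at 0.0756 and 0.741 in ductal-like cells, beside 7.87%.

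The promoter matches were set beside the differences. In mural-like cluster 6, compared interferon genes with an ISRE match had a median difference of 0.29 (14 genes), and those without had 0.68 (9 genes). For other genes, the medians were 0.04 with a match (167 genes) and -0.05 without (4458 genes). In mural-like subset cluster 2 the interferon genes were at 0.55 with a match (13 genes, 5 past the rule) and 0.97 without (9 genes, 2 past it). Of other genes there, 2.5% with a match and 1.63% without were past the rule on the higher side. The order was the other way in the ductal-like cluster, with 1.16 (7 genes, 5 past the rule) and 0.28 (8 genes, 1 past it), and in cluster 1, with 0.17 and 0.13. Of other genes in the ductal-like cluster, 20% with a match and 8.97% without were past the rule on the higher side. The order of a gene's levels over the 9 compared clusters was alike in both libraries for most genes: of 50, 38 had the same highest cluster in both, and Spearman's rho had a median of 0.87, between -0.30 and 0.98. The clusters were made from both libraries together, so these values describe the cluster structure as well as the genes.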

How the data were processed

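Droplet single-cell libraries were processed by the submitters with Cell Ranger 6.0.1 and Seurat against mm10, per the submitters' processing notes; the annotation, cell filters, clustering settings and treatment of doublets are not given in the sources used here, and doublets were not called here. The authors deposited 4 tables of cluster means, with both libraries together or split by condition, over 12 clusters of all cells and 5 of a subset. Their unit (other) is neither counts nor CPM: each deposited value is a linear mean share of UMIs per 10000, as read from the values, and each joint value was the weighted mean of its split values (largest residual 9.2e-08). Calendar dates had replaced 21 gene names, which were restored from the gene order.

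Cell numbers and some UMI totals (2165 ligated cells, 606 mock cells) were recovered from the means. The floor for a value of 0 was 3 UMIs. With 1 library per group no test was possible, and a size rule (values at least 0.5, log2 difference at least 1, pseudocount 0.1) was used. Named are members past the rule, the 3 highest of each group, and the Irf and Stat genes (the values of some members are not reported here), with other pathway genes from lists by role. The members and lists were chosen with earlier results of these data known. Promoters came from RefSeq (GRCm38.p6). Pseudocount, filter, centring, subtraction of the library mean profile, genes listed in 1 library and size were varied. The calculations were tested on simulated data and made with Python 3.11.15, NumPy 2.4.6, pandas 2.3.3 and SciPy 1.17.1.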

Additional observations from a re-analysis of the deposited data

Results flagged for a closer look

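Ifitm2 had opposite signs in macrophage-like cluster 5 (-1.04) and ductal-like cluster 7 (1.33), and Rsad2 in mural-like subset cluster 2 (1.72) and endothelial-like subset cluster 3 (-1.41). With 1 library per condition, the difference between these clusters was not tested.

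Ifi30, a lysosomal thiol reductase, reached 3.98 in the macrophage-like cluster when ligated and was listed at 0 in every cluster of the mock library. It had a single record under this symbol and no other symbol with a row. The GENCODE annotation of mm10 types Ifi30 as a processed transcript and not as protein-coding. Whether that type bears on its listing was not tested. The gene lists of the libraries differ, with 3150 genes in the ligated library only and 684 in mock only, so this 0 is not shown to be a measured absence.

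Clusters with too few mock cells for the comparison also held genes past the size rule with intervals apart. The share of all genes past that rule was not counted there, so these counts are no result about the interferon genes. In cluster 8 (25 mock cells), 14 of 27 compared genes were higher in the ligated library, where the median of all genes was itself 1.49. In Schwann-like cluster 9 (17 mock cells), 3 of 31 were higher, among them Gbp2 and Iigp1. In cluster 11 (22 mock cells), 2 of 29 were higher, Ifi47 and Ifi27l2a, and 4 lower, Gbp3, Ifitm2, Ifitm3 and Rsad2. Subset clusters 1 (14 mock cells, 36 genes compared) and 4 (10 mock cells, 28 compared) each had 0 higher and 4 lower. Their medians were -0.30 and -0.47 over the compared genes. The lower genes were Ifi207, Ifih1, Gbp8 and Ifit3 in cluster 1, and Ifi204, Ifi205, Ifi207 and Ifi211 in cluster 4.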

How the results depend on the processing

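The main counts were 23 higher and 5 lower in all cells, beside 3.75% and 2.26% of all genes, and 17 either way in the subset. The shares of all genes below are those of all cells. They were 2, 1 and 3 with a pseudocount of 1, 48, 8 and 27 with no filter on low values, 5, 3 and 4 when the larger value had to reach 2, and 1, 1 and 2 with a difference of at least 2. After subtraction of the library mean profile, 11 were higher and 10 lower in all cells, beside 2.06% and 3.82% of all genes. Without the ductal-like and erythroid-like clusters, an alternative chosen after seeing the data, 11 were higher and 3 lower, beside 1.68% and 1.72%. A stricter size or filter passes fewer genes by its construction, and the cause of the other changes was not tested.

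The median of the type I targets was above that of all genes in 7 clusters with the main settings, as was that of the interferon-gamma targets. Both counts stayed within 1.5 times of that under every alternative run, a limit that 9 clusters cannot pass upward. When the larger value had to reach 2, the type I median was below all genes in natural killer-like (-0.37), macrophage-like (-0.01 beside 0.04) and erythroid-like cells (0.17 beside 0.51). The interferon-gamma median was then below in natural killer-like (-0.07) and erythroid-like cells (-0.03 beside 0.51). Some clusters then had no gene of a group. Of 45 named differences, 31 kept their side of the rule after the subtraction, 13 did not, and 1 reversed: Ifitm3 in natural killer-like cells, at -0.84. With a pseudocount of 1, 6 of the 45 kept their side of the rule and 39 did not. ISRE matches went from 32 (57.1%) to 39 of 56 (69.6%) with the shorter motif, beside 3.99% and 12.1% of all genes. The type I median of mural-like cluster 6 went from 1.25 to 0.20 with no filter on low values and to 0.84, from 1 gene, when the larger value had to reach 2; fibroblast-like cells were then at 1.08, from 2 genes. No paired analysis was possible because each condition had 1 library. Depth limits the ductal-like cluster most, where intervals overlapped for 6 of 9 genes past the rule.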
